A study of Mus musculus with 10 samples.

Results

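The voltage-gated sodium channels, the voltage-gated calcium channels and the hyperpolarization-activated HCN channels were examined in RNA from mouse motor cortex. Members were chosen by gene symbol: the protein-coding Scn genes of the alpha and beta families, the Cacna1, Cacna2d and Cacnb genes and the Hcn genes. The rule found 35 of the 35275 genes in the deposited table. The mouse gene for Nav1.2 is listed there under its older symbol Scn2a1, which the rule does not match, so it is given here for comparison and is not counted as a member.

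C57BL/6 mice were sampled at postnatal day 22, and their motor cortex gave 10 libraries, 5 from wild type (WT) and 5 from mice with membralin deleted in astrocytes (KO). The labels do not say that each library came from its own animal, so p-values measure the spread between these samples, which may be technical. Membralin, encoded by Tmem259, sits in the membrane of the endoplasmic reticulum. The line that drives the deletion is not given in the sources used here. Levels are in FPKM, fragments scaled to gene length and to library size, so that genes of different length can be set side by side. Such comparisons rest on the deposited lengths, which match the exon bases of the GENCODE M21 annotation unevenly. For Hcn2 both are 3195 bases, and for Cacnb2 they are 3945 and 13228 bases. Each library came from whole tissue, in which fewer cells of a type and less RNA per cell cannot be told apart.

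These channels turn membrane voltage into ion flow. Sodium channel alpha subunits form the pore that starts and carries action potentials, and beta subunits are single-span proteins that adjust gating and surface delivery. Calcium channel alpha1 subunits form the pore that triggers transmitter release, dendritic spikes and bursts, while the intracellular beta and extracellular alpha2delta subunits govern how many of those channels reach the membrane. HCN channels open when the membrane is hyperpolarized and set resting conductance and rhythm. In cortex most of these genes are known chiefly from neurons.

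The 10 libraries held between 22793058 and 28827871 fragments. Of the 14497 genes whose mean reached 0.5 FPKM, limma called 1417 higher and 509 lower in KO at an adjusted p under 0.05, which is 9.77% and 3.51%. The library labelled KO3 goes against its label in the targeted gene: its Tmem259 level of 34.4 FPKM was the highest of all 10, and its Gfap level of 106 FPKM lay within the WT range of 79.4 to 114 FPKM. Tmem259 in KO5, at 26.2 FPKM, also lay within its WT range of 23.8 to 32.4 FPKM, although Gfap there was 470 FPKM. Over all libraries Tmem259 measured 27.4 ± 3.73 FPKM in WT against 23.2 ± 7.16 in KO (SD, n = 5 each) and was not called (limma adjusted p = 0.275). The library labelled KO3 counts as KO in every direction given here, except where it was omitted. Leaving out WT1, KO2 or KO4 brought the calls over all genes to 2 in each case, and the channel genes called by limma to 0, with 13, 13 and 15 of them at an unadjusted p under 0.05. Pan-neuronal markers summed to 1277 to 1456 FPKM in WT and 1230 to 1443 FPKM in KO, and the 9 markers of cortical excitatory neurons, led by Slc17a7, to 850 to 950 FPKM and 866 to 1078 FPKM. Of those 9 markers 2 were called higher and 3 lower, and their part in the channel results was not tested.

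Of the 35 channel genes 29 passed the filter on low values. Among those 29, 6 were lower in KO, namely Scn8a, Scn1a, Cacna1a, Cacna1i, Cacnb3 and Cacnb4. Another 4 were higher, namely Scn7a, Cacna2d2, Hcn3 and Hcn4, and 19 did not pass. The share called lower was 20.7%, against 3.51% of all tested genes, and the share called higher was 13.8%, against 9.77%. The median log2 fold change of the 29 was -0.00138, against 0.0779 for all tested genes. Median-of-ratios scaling applied to the FPKM values moved the median of all genes to -0.00233. Under that scaling 4 channel genes were higher and 7 lower, against 4.19% and 6.52% of all tested genes (608 and 945). The 6 genes called lower had WT means between 23.2 and 104 FPKM, whereas the 4 called higher had WT means between 0.388 and 8.42 FPKM.

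**Figure D1:**
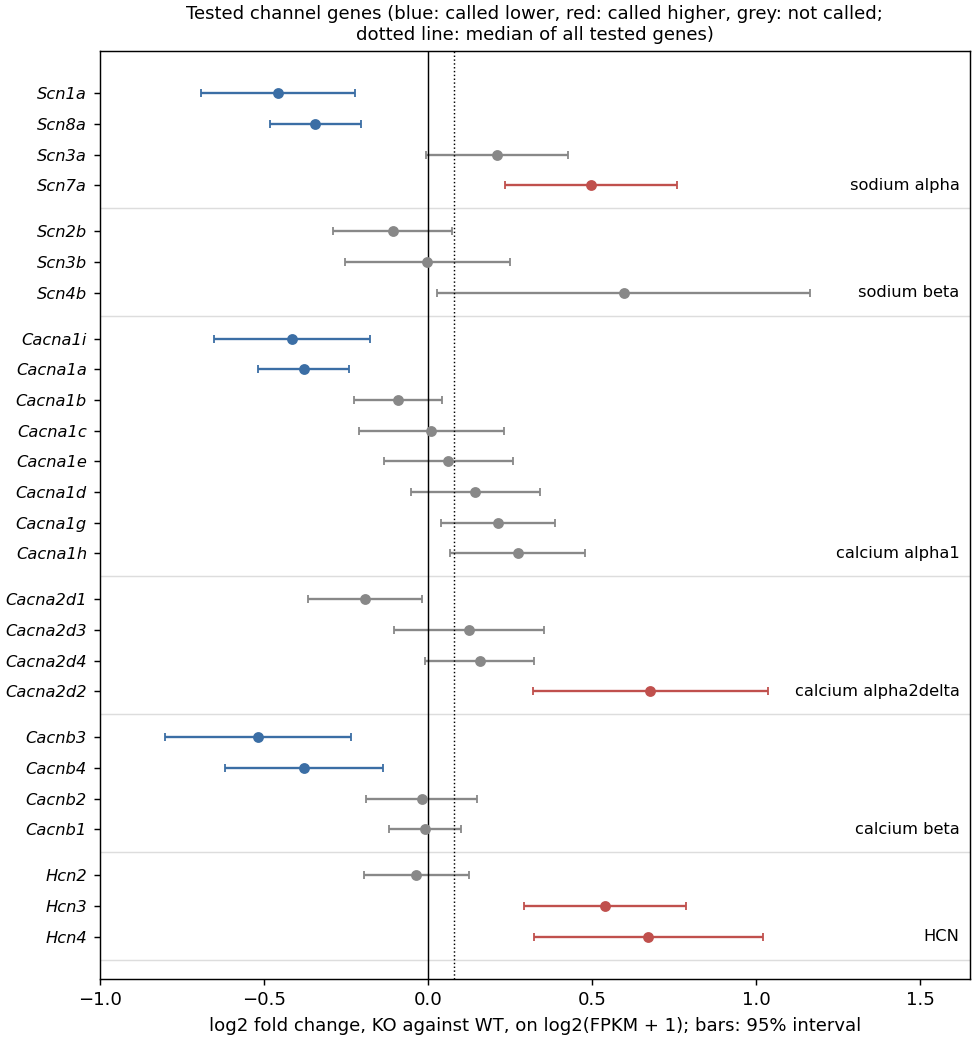
Log2 fold change of 26 of the 29 tested channel genes, KO against WT, on the log2(FPKM + 1) scale, grouped by family, with 95% intervals from limma (n = 5 libraries per group). The 6 genes called lower are blue, the 4 called higher are red and 16 that were not called are grey, and the dotted line is the median of all tested genes at 0.0779.

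Without the library labelled KO3 7 channel genes were called higher and 7 lower, where 19.6% and 6.36% of all tested genes were called. All 10 genes called with every library were among the 14 and kept their direction. Among the additions were Cacna1g and Cacna1h, called higher, and Cacna2d1, called lower. The library labelled KO3 was the KO library nearest to the WT mean for 9 of the 10 called genes, the exception being Scn8a, for which it was KO1. Since that library lies near WT for many genes, leaving it out is no independent check of a change.

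Several calls were lost when single libraries were left out. Without WT1, KO2 or KO4 only 1 gene was called higher and 1 lower over all 14497 tested genes. Losses in those fits were thus not particular to the channel genes. Of the 10 fits that each left out 1 library, Scn8a, Cacna1a and Hcn3 were called in 7 (lost without WT1, KO2 or KO4). Scn1a was called in 6 (lost without WT1, WT5, KO2 or KO4) and Hcn4 in 6 (lost without WT1, KO1, KO2 or KO4). Scn7a and Cacna2d2 were called in 5 (lost without WT1, WT5, KO1, KO2 or KO4), and Cacnb3 in 4 (those 5 libraries and KO5). Cacna1i was called in 2, those without WT4 and without KO3, and Cacnb4 in 1, that without KO3. The highest limma adjusted p over these fits was 0.0555 for Scn8a, Cacna1a and Hcn3 and 0.102 for Cacnb4. KO5 was the lowest library for Scn1a, Cacna1a, Cacna1i, Cacnb3 and Cacnb4 and the highest for Scn7a, Cacna2d2 and Hcn3. For Cacna1a and Cacna1i the next KO library was close, at 25.8 against 25.5 FPKM and 18.0 against 17.9 FPKM. Without KO5 4 channel genes were called higher and 3 lower, where 723 and 264 of all 14497 tested genes were.

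**Figure D2:**
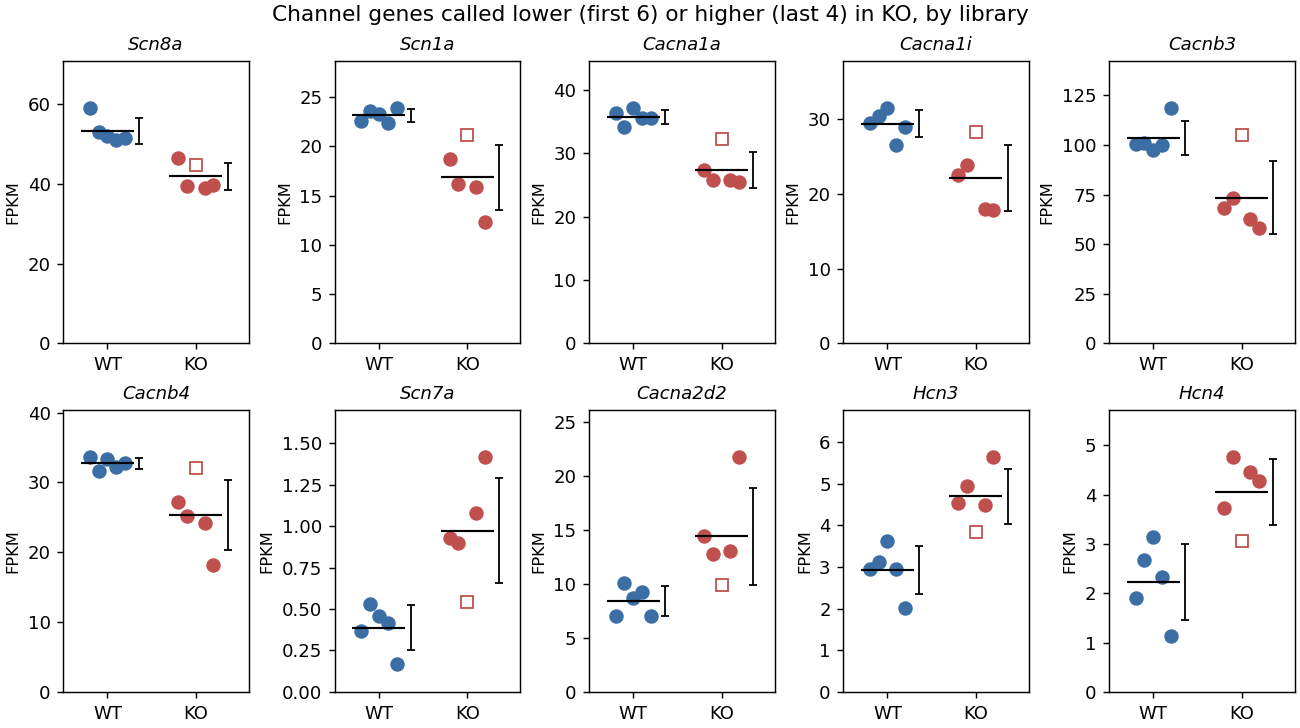
FPKM in each library for the 6 channel genes called lower and the 4 called higher in KO. Circles are libraries, the open square is the library labelled KO3, horizontal lines are group means and bars are the SD (n = 5 each). WT and KO libraries do not overlap for Scn8a, Scn1a, Cacna1a, Scn7a and Hcn3, and the open square lies nearest to WT in 9 of the 10 panels.

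Among sodium channel alpha subunits, the 2 members most abundant in WT cortex fell and the low Scn7a rose. Scn8a encodes Nav1.6, the main channel of the axon initial segment and the nodes of Ranvier. It measured 59.1, 52.9, 52.1, 51.0 and 51.6 FPKM in WT1 to WT5 and 46.5, 39.4, 44.7, 39.0 and 39.8 FPKM in KO1 to KO5. All 5 KO libraries lay below the lowest WT library. The means were 53.4 ± 3.26 and 41.9 ± 3.47 FPKM (SD, n = 5 each), a ratio of 0.785, and the log2 fold change was -0.34 (SE 0.06, limma adjusted p = 0.0186). Of all tested genes 1.85% had KO libraries that lay wholly below WT, and 3 of the 29 channel genes did: Scn8a, Scn1a and Cacna1a.

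Scn1a encodes Nav1.1, a channel on which fast-spiking inhibitory neurons depend and whose loss of 1 copy causes Dravet syndrome in people. It measured 22.6, 23.6, 23.3, 22.4 and 23.9 FPKM in WT and 18.8, 16.2, 21.2, 15.9 and 12.3 FPKM in KO1 to KO5. The WT libraries lay close together, and the KO libraries were spread below them, with KO5 the lowest. The means were 23.2 ± 0.654 and 16.9 ± 3.33 FPKM (SD, n = 5 each), with a log2 fold change of -0.46 (SE 0.11, limma adjusted p = 0.025). In the same libraries the summed level of 7 markers of GABAergic interneurons went the other way, from 256 to 338 FPKM in WT and from 364 to 538 FPKM in KO. That sum covers GABAergic interneurons of several kinds, was led by Sst (mean 137.5 FPKM over all libraries) and does not single out fast-spiking cells. Of these markers 4 were called higher and 1 lower, and their part in the Scn1a result was not tested.

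Scn2a1, the other large alpha subunit of cortical excitatory neurons, measured 52.3 ± 5.19 FPKM in WT against 46.2 ± 3.40 in KO (SD, n = 5 each) and did not pass (log2 fold change -0.17, limma adjusted p = 0.138). Summed over the 9 member alpha subunits and Scn2a1, the level was 136 ± 8.07 FPKM in WT against 116 ± 8.45 in KO. Scn8a supplied 39.1% ± 1.55 of that sum in WT and 36.2% ± 1.19 in KO, and Scn2a1 38.3% ± 1.79 and 40.0% ± 0.808. Scn1a supplied 17.0% ± 1.31 and 14.5% ± 1.98 (SD, n = 5 each). Mean shares of the sodium channel transcripts thus differed by a few percentage points, and the mean sum was lower in KO. The groups overlapped in the sum, with KO1 at 125.5 FPKM and WT5 at 125.4 FPKM. They also overlapped in the shares of Scn8a, Scn2a1 and Scn1a. These sums and shares are descriptions, with no test.

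Scn3a, the alpha subunit of the embryonic and newborn brain, measured 5.68 ± 0.896 FPKM in WT against 6.70 ± 0.744 in KO (SD, n = 5 each; log2 fold change 0.21, limma adjusted p = 0.16) and did not pass.

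Scn7a encodes Nax, a sodium-sensing relative of these channels that is known from glia and lacks the usual voltage gating. It measured 0.369, 0.529, 0.460, 0.415 and 0.166 FPKM in WT and 0.929, 0.900, 0.541, 1.08 and 1.42 FPKM in KO1 to KO5. KO lay wholly above WT, although the library labelled KO3 exceeded the highest WT library by little. The means were 0.388 ± 0.137 and 0.973 ± 0.317 FPKM (SD, n = 5 each), a 2.51-fold difference of means, with a log2 fold change of 0.50 on the log2(FPKM + 1) scale (SE 0.12, limma adjusted p = 0.0259). At such levels the pseudocount of 1 FPKM holds the log2 value far under the ratio of means. KO libraries lay wholly above WT for 5.70% of all tested genes and for 2 of the 29 channel genes, Scn7a and Hcn3.

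Scn1a and Scn7a belong to 1 gene cluster. On mouse chromosome 2 (mm10) Scn3a, Scn2a1, Scn1a, Scn9a and Scn7a lie in that order between 65457118 and 66784914, each running on the minus strand except Scn2a1. Scn1a (66270781 to 66440840) fell and Scn7a (66673425 to 66784914) rose, so 2 genes of 1 cluster moved in opposite directions. The 250 bases before their RefSeq starts (GRCm38.p6, the build of mm10) are shown with 2 further called genes, because these 4 include both directions and differ in base composition. Capitals mark matches to GCGNGGGCG on either strand, a motif bound by the Egr factors, in Scn7a, Scn8a and Cacna2d2, and in Scn1a, which has no match, they mark CCAAT.
Scn1a, lower, chr2:66440838-66441087, minus strand: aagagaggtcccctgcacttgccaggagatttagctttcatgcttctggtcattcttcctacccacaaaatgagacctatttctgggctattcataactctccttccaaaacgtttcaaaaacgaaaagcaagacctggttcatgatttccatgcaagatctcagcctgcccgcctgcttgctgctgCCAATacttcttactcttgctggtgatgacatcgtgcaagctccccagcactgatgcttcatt
Scn7a, higher, chr2:66784911-66785160, minus strand: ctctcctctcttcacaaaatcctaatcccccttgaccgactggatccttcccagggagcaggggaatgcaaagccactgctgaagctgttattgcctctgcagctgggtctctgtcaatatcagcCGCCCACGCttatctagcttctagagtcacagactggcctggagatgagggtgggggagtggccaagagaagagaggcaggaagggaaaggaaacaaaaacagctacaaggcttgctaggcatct
Scn8a, lower, chr15:100870395-100870644, plus strand: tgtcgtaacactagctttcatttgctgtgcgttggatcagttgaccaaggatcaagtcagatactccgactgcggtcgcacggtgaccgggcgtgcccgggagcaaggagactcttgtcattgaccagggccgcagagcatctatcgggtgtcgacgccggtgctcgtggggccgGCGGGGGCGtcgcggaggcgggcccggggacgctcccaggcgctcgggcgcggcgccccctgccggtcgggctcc
Cacna2d2, higher, chr9:107399630-107399879, plus strand: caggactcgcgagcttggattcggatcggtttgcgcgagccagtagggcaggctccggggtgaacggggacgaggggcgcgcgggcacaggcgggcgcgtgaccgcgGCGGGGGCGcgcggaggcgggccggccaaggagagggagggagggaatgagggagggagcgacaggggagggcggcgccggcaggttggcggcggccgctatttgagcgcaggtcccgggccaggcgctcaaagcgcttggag

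The Scn1a and Scn7a windows hold 4 and 3 CpG pairs, and those of Scn8a and Cacna2d2 hold 30 and 34, where the median over all windows in the table is 6. Of the 35 channel genes 25 had a start in the RefSeq table, and the start nearest to the deposited gene model was used. It lay 268 bases from the deposited start for Cacna2d2 and 158581 bases from it for Cacna1e, the largest distance. GCGNGGGCG was found in 6 of those 25 windows (24%) and in 4.70% of all 32851 windows, which were not matched to them for base composition. GGGCGG, part of which can overlap it, was found in 48% and 32.7%, CCAAT in 24% and 33.8%, and the full cyclic AMP element TGACGTCA in 0% and 1.55%. The 6 genes with GCGNGGGCG were Cacna1b, Cacna2d1, Cacna2d2, Hcn2, Scn7a and Scn8a, of which 2 rose, 1 fell and 3 did not pass. A match is a description of the letters and not a bound site.

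None of the 4 sodium channel beta subunits passed. These proteins bind the pore subunits and act in cell adhesion. Scn2b measured 94.7 ± 9.87 and 87.7 ± 8.19 FPKM (SD, n = 5 each; adjusted p = 0.393), and Scn3b 27.1 ± 4.99 and 26.6 ± 1.46 FPKM (adjusted p = 0.994).

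Scn4b, the beta subunit linked to resurgent sodium current, varied widely between libraries. It measured 25.4, 72.0, 30.8, 42.6 and 21.3 FPKM in WT and 64.5, 62.3, 50.8, 45.7 and 45.9 FPKM in KO1 to KO5. WT2 was the highest of all 10 libraries, and the other WT libraries lay below every KO library. The difference did not pass (log2 fold change 0.60, SE 0.26, limma adjusted p = 0.136), but did without WT2 (log2 fold change 0.85, adjusted p = 0.0299). Markers of striatal neurons, a cell type in which Scn4b is abundant, summed to 586 FPKM in WT2, between 187 and 321 FPKM in the other WT libraries, and between 455 and 595 FPKM in KO. Of these markers 6 were in the table and 2 were called higher. The libraries low in the striatal markers were thus low in Scn4b, and the part of such tissue in the result was not tested.

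**Figure D3:**
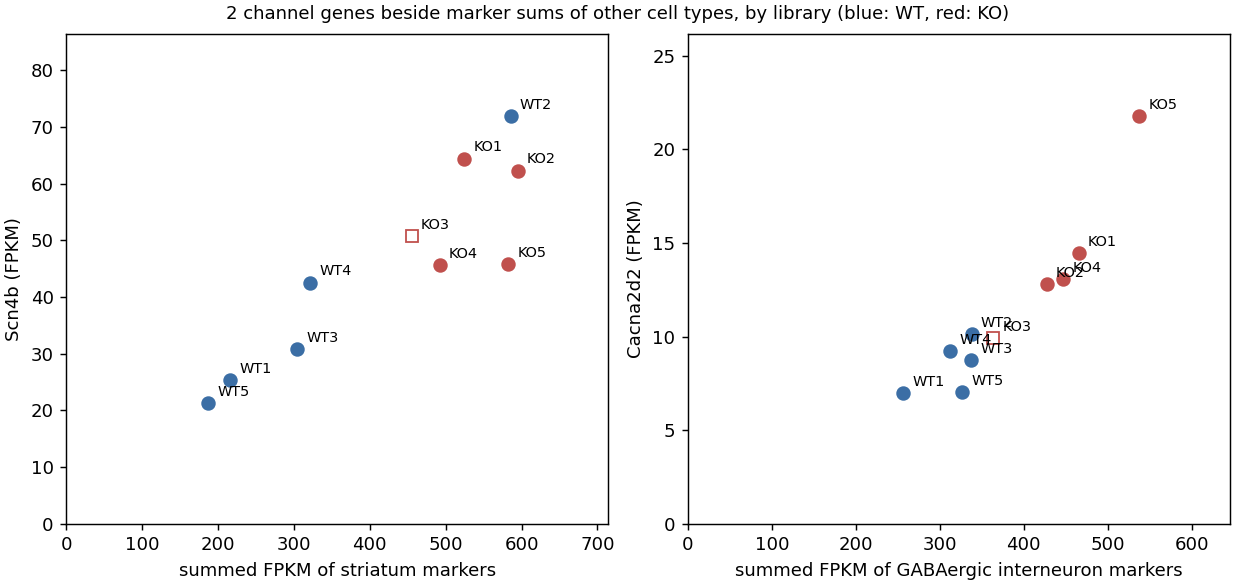
Scn4b against the summed FPKM of 6 striatal markers (left) and Cacna2d2 against the summed FPKM of 7 GABAergic interneuron markers (right), 1 point per library, WT in blue, KO in red and the library labelled KO3 as an open square. WT2, at 72.0 FPKM of Scn4b, lies among the KO libraries in the left panel, and KO5 is highest on both axes in the right panel.

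Among calcium channel pore subunits, Cacna1a and Cacna1i fell and the other 6 tested did not pass. Cacna1a encodes the P/Q-type channel that drives fast transmitter release, and it was the most abundant alpha1 transcript in WT. It measured 36.3, 34.1, 37.1, 35.6 and 35.5 FPKM in WT and 27.4, 25.8, 32.3, 25.8 and 25.5 FPKM in KO1 to KO5. All KO libraries lay below WT, with 4 of them within about 2 FPKM of each other and the library labelled KO3 between the groups. The means were 35.7 ± 1.10 and 27.3 ± 2.86 FPKM (SD, n = 5 each), with a log2 fold change of -0.38 (SE 0.06, limma adjusted p = 0.018). An antisense gene, Gm16183, covers 3.81% of its annotated exon bases and measured 1.32 ± 0.245 FPKM in WT against 0.874 ± 0.469 in KO.

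None of the other high-voltage pore genes passed. Cacna1b, the N-type channel, measured 18.3 to 22.5 FPKM in WT and 17.5 to 19.5 FPKM in KO (log2 fold change -0.09, 95% interval -0.23 to 0.04). Cacna1e, the R-type channel, measured 26.6 ± 3.26 FPKM in WT against 27.7 ± 2.56 in KO (log2 fold change 0.06, interval -0.13 to 0.26). Cacna1c and Cacna1d, the L-type channels that couple activity to transcription, did not pass either (limma adjusted p = 0.952 and 0.284). Cacna1c measured 9.22 to 13.7 FPKM in WT and 9.88 to 13.4 FPKM in KO, and Cacna1d 4.83 to 6.71 and 5.47 to 7.47 FPKM. Cacna1a supplied 35.8% ± 2.47 of the sum of these 5 genes in WT and 29.6% ± 3.12 in KO (SD, n = 5 each, with no test). In KO its mean of 27.3 FPKM stood beside 27.7 FPKM for Cacna1e, a gap within the spread of either gene.

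The 3 T-type genes, whose channels open near rest and support burst firing, did not move together. Cacna1i measured 29.5, 30.4, 31.5, 26.6 and 29.0 FPKM in WT and 22.5, 23.9, 28.3, 18.0 and 17.9 FPKM in KO1 to KO5. All KO libraries except the library labelled KO3 lay below WT. The log2 fold change was -0.41 (SE 0.11, limma adjusted p = 0.0335), a call lost in 8 of the 10 fits that left out 1 library, with adjusted p up to 0.0863. Cacna1g measured 14.7 ± 1.12 and 17.2 ± 2.07 FPKM (SD, n = 5 each), and Cacna1h 12.1 ± 1.42 and 14.8 ± 1.75 FPKM, with log2 fold changes of 0.21 and 0.27 that did not pass (limma adjusted p = 0.0896 and 0.071). Both passed once the library labelled KO3 was omitted (adjusted p = 0.0308 and 0.0128). Cacna1i supplied 52.4% ± 2.17 of the T-type sum in WT and 40.7% ± 7.25 in KO, ranging from 33.2% to 51.1% in KO, with the library labelled KO3 at the top. The sum itself was 56.2 ± 3.48 and 54.2 ± 2.44 FPKM (SD, n = 5 each).

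The cytoplasmic beta subunits divided into a pair that fell and a pair that did not pass. Cacnb3, the most abundant of the 4 and the highest of all calcium channel genes, measured 100, 101, 97.7, 100 and 119 FPKM in WT and 68.4, 73.3, 105, 62.8 and 58.2 FPKM in KO1 to KO5. The library labelled KO3 lay within the WT range, and the other 4 lay far below it. The means were 104 ± 8.48 and 73.6 ± 18.5 FPKM (SD, n = 5 each) and the log2 fold change was -0.52 (SE 0.13, limma adjusted p = 0.0291), the largest fall by log2 fold change among the tested channel genes. Cacnb4, the beta subunit mutated in the lethargic mouse, measured 33.7, 31.6, 33.3, 32.2 and 32.8 FPKM in WT and 27.2, 25.2, 32.0, 24.1 and 18.2 FPKM in KO1 to KO5. Its log2 fold change was -0.38 (SE 0.11, limma adjusted p = 0.0435), with the library labelled KO3 again inside the WT range. This call was lost in 9 of the 10 fits that left out 1 library, with adjusted p from 0.0518 to 0.102, and in the limma fit with no variance trend (adjusted p = 0.0546). Cacnb1 measured 47.1 ± 1.96 and 46.8 ± 2.29 FPKM and Cacnb2 8.72 ± 1.09 and 8.56 ± 0.577 FPKM (SD, n = 5 each). The 95% interval of the log2 fold change of Cacnb1 ran from -0.12 to 0.10. The sum of the 4 was 192 ± 6.84 FPKM in WT against 154 ± 23.8 in KO, where the library labelled KO3 reached 194 FPKM.

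Of the alpha2delta subunits, which bind the gabapentinoid drugs in their first 2 forms, Cacna2d2 rose. It measured 6.99, 10.1, 8.74, 9.24 and 7.01 FPKM in WT and 14.4, 12.8, 9.91, 13.1 and 21.8 FPKM in KO1 to KO5. KO5 was far above the others, and the library labelled KO3 lay within the WT range. The means were 8.42 ± 1.39 and 14.4 ± 4.45 FPKM (SD, n = 5 each), a 1.71-fold difference, with a log2 fold change of 0.68 (SE 0.17, limma adjusted p = 0.0262). The sum of GABAergic interneuron markers was also highest in KO5, at 538 FPKM, and lowest in WT1, at 256 FPKM, and the part of these cells in the result was not tested. Cacna2d1, the most abundant form, measured 41.0 ± 3.87 FPKM in WT against 35.7 ± 3.33 in KO (log2 fold change -0.19, limma adjusted p = 0.117) and passed as lower without the library labelled KO3 (adjusted p = 0.0448). Cacna2d3 and Cacna2d4 did not pass (adjusted p = 0.428 and 0.171).

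Cacna2d2 supplied 11.0% ± 1.04 of the alpha2delta sum in WT and 18.0% ± 4.99 in KO, and Cacna2d1 53.8% ± 2.64 and 45.0% ± 3.92 (SD, n = 5 each, with no test). The sum was 76.4 ± 9.27 and 79.4 ± 4.24 FPKM.

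In the HCN family the 2 members of lowest level rose and the other 2 were not called. Hcn2 measured 67.2, 64.0, 64.9, 63.2 and 78.5 FPKM in WT and 65.7, 67.3, 66.4, 57.5 and 72.4 FPKM in KO, with overlapping groups (log2 fold change -0.04, 95% interval -0.19 to 0.12). Hcn3 measured 2.94, 3.12, 3.62, 2.95 and 2.01 FPKM in WT and 4.54, 4.94, 3.84, 4.49 and 5.65 FPKM in KO1 to KO5. Every KO library lay above WT, with the library labelled KO3 the closest. The log2 fold change was 0.54 (SE 0.11, limma adjusted p = 0.0194). On the opposite strand Pklr overlaps 17.1% of the exon bases of Hcn3, and it measured 0.0257 ± 0.0298 FPKM in WT against 0.0278 ± 0.0203 in KO.

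Hcn4, the pacemaker channel of the heart and of thalamic relay neurons, measured 1.91, 2.67, 3.14, 2.33 and 1.13 FPKM in WT and 3.72, 4.77, 3.07, 4.46 and 4.28 FPKM in KO1 to KO5. The library labelled KO3 lay just under the highest WT library, and the other 4 lay above it. The means were 2.24 ± 0.767 and 4.06 ± 0.673 FPKM (SD, n = 5 each), a 1.82-fold difference, with a log2 fold change of 0.67 (SE 0.16, limma adjusted p = 0.0252). Hcn3 and Hcn4 together supplied few of the HCN transcripts: 3.34% ± 0.760 and 2.56% ± 0.936 in WT and 5.21% ± 0.555 and 4.52% ± 0.782 in KO. Thalamic markers summed to 12.9 to 16.4 FPKM in WT and 14.8 to 22.6 FPKM in KO, and none of the 4 was called. Olfactory bulb markers summed to 5.15 to 31.0 FPKM in WT and 21.3 to 64.7 FPKM in KO, with 2 of 7 called higher.

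**Figure D4:**
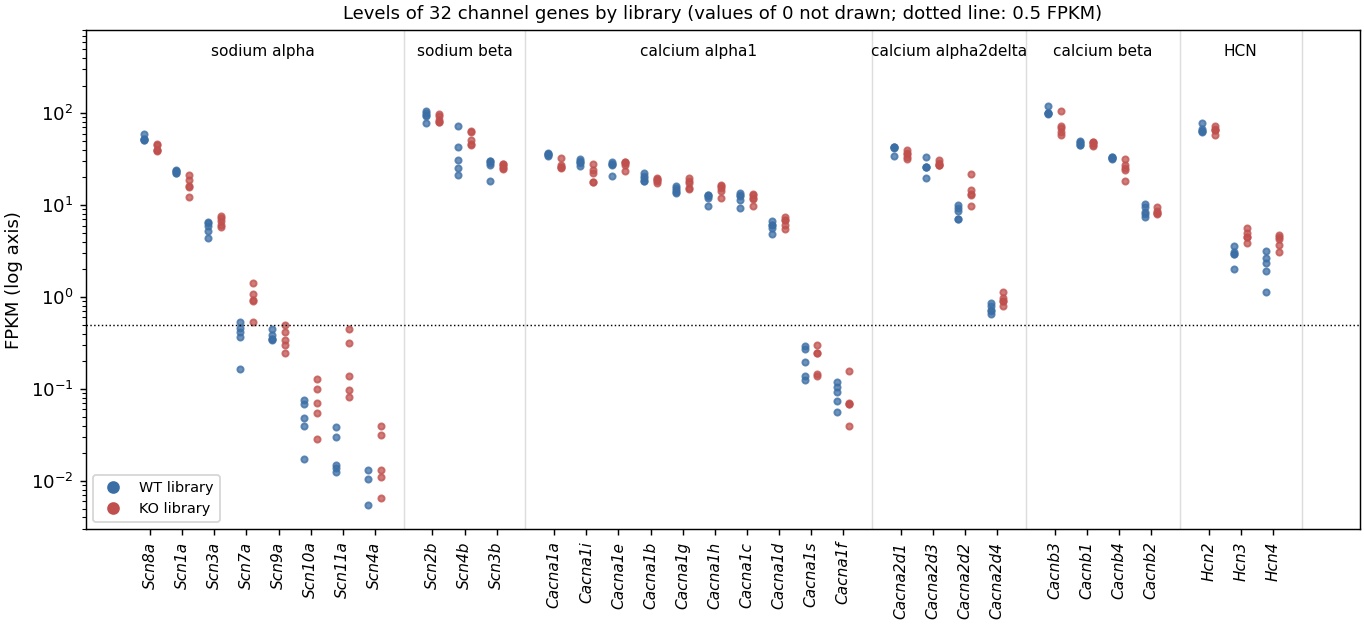
FPKM of 32 channel genes in each library on a log axis, ordered within each family by WT mean, WT in blue and KO in red, values of 0 not drawn. The dotted line marks 0.5 FPKM, and the 6 genes with a mean under it across libraries lie among the sodium alpha and calcium alpha1 subunits.

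The 6 members under the filter were Scn4a, Scn9a, Scn10a, Scn11a, Cacna1f and Cacna1s, known chiefly from skeletal muscle, peripheral sensory neurons or the retina. Scn11a, the Nav1.9 channel of pain-sensing neurons, stood apart among them. It had 17 fragments over the 5 WT libraries, from 2 to 6 in each, and 153 over the 5 KO libraries, from 11 to 60 in each. Its levels were 0.0124 to 0.0382 FPKM in WT and 0.137, 0.0964, 0.0813, 0.317 and 0.448 FPKM in KO1 to KO5. All KO libraries lay above WT. Pooled over libraries the levels were 0.0223 FPKM (exact Poisson interval at 95% confidence 0.0130 to 0.0357) and 0.210 FPKM (0.178 to 0.246), which covers counting error alone, and the ratio was 9.44. The exact two-sided permutation p was 0.00794, the smallest that 5 against 5 allows. Every gene whose groups do not overlap has this p, Scn8a, Scn1a, Cacna1a, Scn7a and Hcn3 among them. KO lay wholly above WT for 5.70% of the 14497 genes that passed the filter. The share among genes below the filter was not taken. Scn11a did not pass in the fit of 25406 genes without the filter (limma adjusted p = 0.0933). There 1.37% of genes were called higher and 0.464% lower. In that larger fit 0 channel genes were called higher and 2 lower, Cacna1a and Scn8a (adjusted p = 0.0479 each), with 16 at an unadjusted p under 0.05. Markers of peripheral sensory neurons summed to 1.29 to 1.49 FPKM in WT and 0.742 to 1.58 FPKM in KO, led by Prph, and Mrgprd was at 0 in all 10 libraries.

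Scn9a, the Nav1.7 channel, was the best measured of the others, with 486 fragments in WT and 438 in KO, at 0.376 ± 0.0454 and 0.361 ± 0.0992 FPKM (SD, n = 5 each). Scn10a had 41 and 60 fragments, Cacna1s 166 and 166, and Cacna1f 77 and 66. Scn4a, the channel of skeletal muscle, had 5 fragments in 3 of 5 WT libraries and 17 in KO, where a single library held at most 7. None of these 5 was called in the fit without the filter (limma adjusted p from 0.507 to 0.910). Markers of striated and heart muscle summed to 6.17 to 7.21 FPKM in WT and 4.95 to 8.12 FPKM in KO, and none of the 4 tested was called.

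A second list held genes taken to bind, traffic or modulate these channels, the Cacng genes among them. How far each of them does so was not examined. That list also held genes of the sodium leak channel complex, Unc80 among them, which is not a channel of the member families. Of 41 listed genes 40 were in the table and 38 were tested, of which 4 rose and 6 fell, against 9.77% and 3.51% of all tested genes. Without the library labelled KO3 the counts were 9 and 8, where 19.6% and 6.36% of all tested genes were called. The 6 that fell were Fgf13, Cabp1, Ank3, Cacng2, Pex5l and Unc80. Ank3 encodes ankyrin-G, which anchors sodium channels at the axon initial segment, and it measured 79.7, 83.7, 84.6, 76.0 and 73.8 FPKM in WT and 67.6, 70.5, 73.3, 62.2 and 63.6 FPKM in KO1 to KO5. All KO libraries lay below WT (log2 fold change -0.24, SE 0.06, limma adjusted p = 0.0302). Fgf13, an intracellular factor that binds sodium channel tails, measured 64.0 ± 5.87 and 47.8 ± 7.03 FPKM (SD, n = 5 each; limma adjusted p = 0.0234).

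Pex5l encodes TRIP8b, the auxiliary subunit that directs HCN channels to distal dendrites. It measured 56.8, 51.0, 52.8, 52.8 and 54.4 FPKM in WT and 48.1, 39.4, 48.0, 40.3 and 31.6 FPKM in KO1 to KO5, wholly below WT (log2 fold change -0.38, SE 0.10, limma adjusted p = 0.0315). Cabp1, a calcium-binding regulator of calcium channels, measured 85.2 ± 13.5 and 56.0 ± 14.9 FPKM (SD, n = 5 each; limma adjusted p = 0.0252), with the library labelled KO3 at 81.5 FPKM. Cacng2, known as stargazin, and Unc80, part of the sodium leak channel complex, had log2 fold changes of -0.36 and -0.19 (limma adjusted p = 0.0312 and 0.0402).

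The 4 partner genes that rose were Rem2, Gem, Cacng5 and Cacng6. Rem2 and Gem are small GTPases that bind beta subunits and inhibit high-voltage calcium channels. Rem2 measured 2.86, 4.90, 4.08, 4.40 and 2.51 FPKM in WT and 9.40, 7.07, 5.36, 7.58 and 9.34 FPKM in KO1 to KO5. Every KO library lay above WT (log2 fold change 0.89, SE 0.16, limma adjusted p = 0.0186). Gem measured 0.762 ± 0.160 FPKM in WT against 2.15 ± 1.07 in KO (SD, n = 5 each; adjusted p by limma 0.0275), with the library labelled KO3 at 0.903 FPKM, inside the WT range. Cacng5 measured 2.62, 3.87, 8.61, 5.91 and 1.99 FPKM in WT and 11.2, 13.9, 8.57, 12.3 and 7.97 FPKM in KO. Its 2 highest WT libraries, WT3 and WT4, were also those with Omp, an olfactory marker, above 1 FPKM (3.26 and 2.95 FPKM), and the part of such tissue was not tested for this gene alone.

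Markers of other cell types and of tissue outside the motor cortex differed in part with genotype. Meningeal fibroblast markers summed to 19.5 to 29.6 FPKM in WT, to 24.0 FPKM in the library labelled KO3 and to more than in any WT library in the other 4 KO libraries, up to 55.8 FPKM, with 2 of 5 called higher. Oligodendrocyte markers summed to 1371 to 1695 FPKM in WT, to 1514 FPKM in the library labelled KO3 and to between 1042 and 1240 FPKM in the other 4, with none of 5 called. In both sums, as in Cacnb3 and Cacnb4, 4 KO libraries lay outside the WT range and the library labelled KO3 lay inside it, and the part of these cells in the channel results was not tested. Omp reached 1 FPKM in 2 WT libraries, WT3 and WT4, and in every KO library but KO5. Within the 6 libraries with Omp of at least 1 FPKM no channel gene and no other gene was called, although 11 of the 29 channel genes had an unadjusted p under 0.05. The log2 fold changes there were -0.28 for Scn8a, -0.34 for Scn1a, -0.38 for Cacna1a, -0.33 for Cacna1i, -0.38 for Cacnb3 and -0.27 for Cacnb4. They were 0.36 for Scn7a, 0.43 for Cacna2d2, 0.35 for Hcn3 and 0.42 for Hcn4. All 10 called genes thus kept their direction in those libraries. Those 6 libraries are among the 10 that gave the calls, so a kept direction is no independent check. The remaining 4 libraries held 1 KO library, KO5, and allow no comparison with a spread in KO.

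Gene length was another property in which the members stood apart. The tested channel genes had a median length of 7338 bases in the deposited table, against 3078 bases for all tested genes. Of all 1757 tested genes of at least 6000 bases, 8.20% were called lower and 4.10% higher, and their median log2 fold change was 0.00734. Among the 15 channel genes of that length 5 were called lower and 1 higher. Of the 5750 genes between 3000 and 6000 bases 4.07% were called lower and 8.87% higher, and 3 of 12 channel genes in that range were called higher and 0 lower. After a correction for gene length in each library 5 channel genes were lower and 5 higher, where 5.04% and 3.93% of all genes were. Cacnb4 was no longer called in that fit (limma adjusted p = 0.056) and Cacna1h was called higher (adjusted p = 0.0499).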

How the data were processed

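The deposited table holds 1 FPKM value per gene and library, which the authors normalized to gene length and library size. The genome build is mm10 and the tool named is DESeq2, per the submitters' processing notes, and neither the aligner nor the annotation or strand setting is stated in those notes. Every FPKM value was a whole multiple, within 0.02, of the value of 1 fragment, so fragments were recovered for all values, and library totals ran from 22793058 to 28827871. Each of the 45 pairs of libraries differed by more than sampling noise, with a chi-square per gene of 7.22 or more.

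Values were tested as log2(FPKM + 1) with limma 3.58.1 in R 4.3.3 (empirical Bayes with a mean trend), KO against WT, 5 libraries each, with no covariate. Genes whose mean reached 0.5 FPKM entered, and p-values were adjusted by Benjamini and Hochberg over all 14497, with calls at 0.05. Fold changes on this scale understate the change of low genes. The script was tested on simulated data, and other filters, scalings, covariates and left-out libraries were tried as alternatives. The channel genes are described, apart from some that are not reported here by name, with values per library for called genes and for those that a single library decides. The members and lists were chosen with earlier results of these data known. Overlaps with other genes come from GENCODE M21, which matched 35 of 35 gene IDs. The exact Poisson intervals of the pooled Scn11a levels cover counting error only. The intervals of log2 fold changes come from limma and rest on the spread between libraries.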

Additional observations from a re-analysis of the deposited data

Results flagged for a closer look

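Single libraries that stood apart from the other 4 of their group by Dixon's criterion (gap over range above 0.71) were found in 9 of 86 groups of values examined, where chance gives about 1 in 20. Of these, 6 were WT5. It was the highest WT library for Hcn2 at 78.5 FPKM, for Cacnb3 at 118.6 FPKM and for the calcium-binding regulator Cabp1 at 108.8 FPKM. It was the lowest WT library for Cacna1e at 20.9 FPKM, for Cacna2d1 at 34.1 FPKM and for Scn3b at 18.4 FPKM. WT1 was the highest WT library for Scn8a at 59.1 FPKM. In KO the library labelled KO3 was the highest for Cacna1a at 32.3 FPKM, and KO5 was the highest for Cacna1f at 0.158 FPKM.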

How the results depend on the processing

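Counts are given as higher and lower in KO. Pseudocount 0.1, a mean of at least 1 FPKM, no variance trend and a Y-linked covariate kept every count within 1.5 times. Over all tested genes the counts, 1417 and 509, became 347 and 118 without a filter, 608 and 945 with median-of-ratios scaling, 727 and 980 with voom on recovered fragments, 2665 and 892 with array weights, and 570 and 730 with the gene length correction. With an olfactory bulb marker covariate they were 0 and 0 by limma (2484 at an unadjusted p under 0.05), and 744 and 395 when KO3 was also omitted. In the libraries with Omp of at least 1 FPKM they were 0 and 0 (1908 at an unadjusted p under 0.05). Channel genes, 4 and 6, became 0 and 2 without a filter, 7 and 7 with array weights, and 0 and 0 in both of those olfactory fits (11 at an unadjusted p under 0.05 in each). Partner genes, 4 and 6, became 1 and 0 without a filter, 0 and 0 in both olfactory fits, 4 and 10 with median-of-ratios scaling and 4 and 12 with voom. The following were chosen after seeing the data. With KO3 omitted, the length correction gave 1299 and 1495 genes, 7 and 7 channel genes and 15 partners lower, and median-of-ratios scaling gave 1649 genes and 16 partners lower. Over the fits that left out 1 library, or KO3 and 1 more, all genes ranged from 1 to 2841 higher and from 1 to 922 lower, channel genes from 0 to 7 in each direction, and partners from 0 to 9 in each direction.

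The replicate numbers did not pair the samples: same-numbered libraries deviated with correlations of 0.14, -0.04, -0.06, 0.14 and 0.11, and 2 of the 5 KO libraries correlated best with the WT library of their own number. The fit with a replicate block called 884 genes higher and 387 lower, with 2 channel genes higher and 4 lower. The calls not made under it were Cacnb3 (limma adjusted p = 0.0531), Cacnb4 (0.0517), Cacna2d2 (0.0543) and Scn7a (0.0599).

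The 10 called channel genes kept their direction in all 339 refits and lost their call in 87. The refits reuse the same libraries, so a kept direction is no independent check. Genes that changed sign were none of the called ones. Cacna1c was -0.08 with median-of-ratios scaling, -0.0759 with voom, -0.20 with the olfactory covariate, -0.19 with that covariate and KO3 omitted, -0.0034 among libraries with Omp and -0.0878 with median-of-ratios scaling and KO3 omitted. Cacna1e was -0.0328, -0.0230, -0.0103 and -0.0471 with median-of-ratios scaling, voom, the covariate and Omp libraries alone. Cacna1d was -0.0234 with the covariate. Cacnb2 was 0.0181 and 0.0302 and Hcn2 0.0976 and 0.0918 with the covariate, without and with KO3 omitted. Hcn2 was 0.0016 and Scn2b 0.0101 among libraries with Omp, and Scn3b was 0.0027 with the Y-linked covariate. Over the fits that left out libraries, sign changes were seen for Cacna1c from -0.0712 to 0.105, Cacna1e from -0.0179 to 0.155, Cacnb1 from -0.0511 to 0.0118, Cacnb2 from -0.0679 to 0.0495, Hcn2 from -0.0865 to 0.0222 and Scn3b from -0.130 to 0.0479. The cause of these changes was not tested.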
